A study of Rattus norvegicus with 8 samples.

Results

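Gap43, Map1b, Map2 and Mapt are genes of axon growth and of the neuronal microtubule skeleton, and they were examined here as a readout of sprouting in the rat spinal cord below an injury. The rule that picks them lists Ensembl identifiers and applies no threshold to any value, and they are 4 of the 32883 genes in the deposited table: ENSRNOG00000001528 (Gap43), ENSRNOG00000017428 (Map1b), ENSRNOG00000011841 (Map2) and ENSRNOG00000005133 (Mapt). The table names genes by identifier alone and none of its identifiers matched the reference table at hand, so the symbols are those given with the identifiers when the set was defined. RNA came from the lower cord of Sprague Dawley rats, an outbred strain, 23 days after a hemisection at T9. Every animal carried the injury, and the groups were 4 libraries from rats trained after it and 4 from rats left untrained. The sources used here do not give the kind of training, the animals' age and sex or how many animals stand behind a library, and no uninjured cord was analysed here. The p-values thus reflect only how these 8 libraries vary, which may be technical.

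Gap43 encodes a membrane-attached phosphoprotein of growth cones that is abundant in growing and regenerating axons and is widely used as a marker of sprouting. Map1b, Map2 and tau, the product of Mapt, bind along microtubules. Map1b is the early one, prominent in growing axons, Map2 is sorted mainly to dendrites and cell bodies, and tau mainly to axons. All of these are made chiefly by neurons, so in bulk cord RNA fewer neurons and less RNA per neuron cannot be told apart. Neurons whose axons enter the lower cord from elsewhere keep most of their RNA in cell bodies outside the sampled tissue, so their axons add little to RNA from this tissue.

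Libraries were made by CEL-Seq2, which captures the 3′ end of each transcript and counts each molecule once by a random barcode, the unique molecular identifier (UMI). A gene's UMI count therefore does not scale with transcript length. Untrained libraries held 240895 to 453390 UMIs and trained libraries 192472 to 400934. The 4 genes together took 0.482% ± 0.064 (SD, n = 4) of an untrained and 0.476% ± 0.067 (SD, n = 4) of a trained library's UMIs. All 4 passed the filter on low counts that kept 4086 genes, and their counts ran from 143 to 1077 UMIs per library. Levels below are in CPM, UMI counts scaled to a common library total over those 4086 genes, with TMM factors (a trimmed mean of log ratios) between libraries. Cell type markers, other growth cone genes and other microtubule genes could not be looked up for want of a table that pairs identifiers with symbols, so the neuronal content of each library was not measured.

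In the comparison of trained with untrained cords, none of the 4 genes passed the threshold (edgeR quasi-likelihood test, 0 of 4 past an adjusted p of 0.05). The background of that comparison was 0% of the 4086 genes tested, and DESeq2 and limma-voom also called 0. An unadjusted p under 0.05 was reached by 52 genes (1.27%) in edgeR, 27 in DESeq2 and 57 in limma-voom, and none of the 4 was among them in edgeR, where their smallest unadjusted p was 0.655. Trained and untrained libraries overlapped for all 4 genes, while the groups did not overlap for 1.10% of genes tested. What set the 4 genes apart from each other was their spread between libraries: Gap43 ranged widely and followed the replicate number of the libraries, Map1b less so, and Map2 and Mapt were nearly level throughout.

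**Figure D1:**
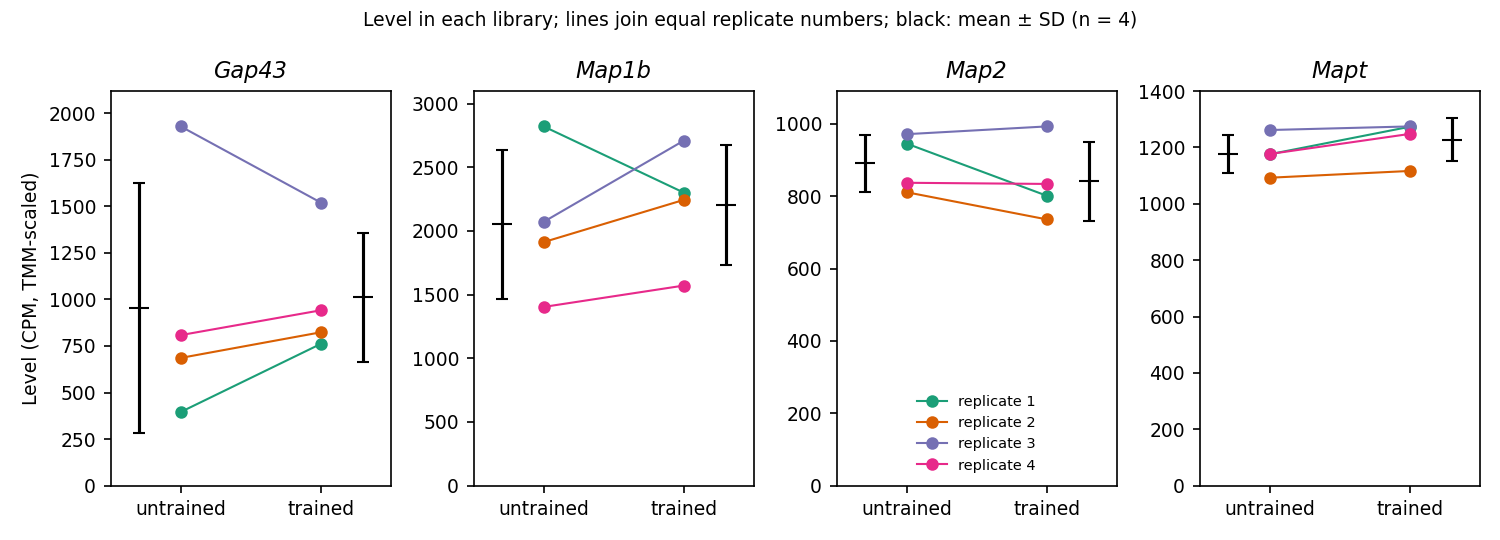
Level of each gene in each library in CPM (vertical axis, TMM-scaled, from 0), untrained at left and trained at right; lines join libraries with the same replicate number and black marks give mean ± SD (n = 4). Gap43 spans 395 to 1928 CPM while Mapt stays between 1092 and 1275 CPM.

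Gap43, the growth cone gene, was counted at 151, 241, 405 and 364 UMIs in untrained replicates 1 to 4 and at 303, 160, 248 and 175 UMIs in trained replicates 1 to 4. Scaled, these were 395, 686, 1928 and 808 CPM in untrained and 761, 823, 1520 and 941 CPM in trained libraries. Replicate 3 was the highest in both groups, replicate 1 the lowest in both, and the 4 trained values lay inside the untrained range. The means were 954 ± 672 CPM untrained and 1011 ± 347 CPM trained (SD, n = 4 each), which put the log2 fold change at 0.09 ± 0.36 (SE; 95% interval -0.67 to 0.85, edgeR adjusted p = 0.99998). The trained library was the higher one in 3 of 4 pairs of equal number, by 0.93, 0.26 and 0.22 on the log2 scale in replicates 1, 2 and 4, and the lower one in replicate 3, at -0.34. With the replicate number as a block the log2 fold change was 0.26 ± 0.16 (SE), with an interval of -0.08 to 0.59 (edgeR adjusted p = 0.994). Against a median absolute log2 fold change of 0.15 over all genes tested, this blocked estimate was at the 74.4th percentile. The mean of the 4 paired log2 differences was 0.27, with an SD of 0.52. An estimate of this size did not require the block. Without it, limma-voom gave 0.277 ± 0.359 (SE; 95% interval -0.485 to 1.04, limma-voom adjusted p = 0.99927).

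The Gap43 estimate depended on single libraries. Without untrained replicate 3 the log2 fold change was 0.67 ± 0.29 (SE, edgeR unadjusted p = 0.0311, adjusted p = 1), and its interval of 0.07 to 1.28 no longer excluded a doubling. Without untrained replicate 1, untrained replicate 2 or trained replicate 3 the sign turned, to -0.17, -0.04 and -0.18. Without trained replicate 1 the log2 fold change was 0.20, and without trained replicate 2 it was 0.17. Without untrained replicate 4 it was 0.02. With pairs kept, leaving out replicate 3 gave 0.47 ± 0.15 (SE, edgeR unadjusted p = 0.00427, adjusted p = 0.581) and leaving out replicate 1 gave 0.02 ± 0.15.

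Map1b, the microtubule protein of growing axons, was the most abundant of the 4, at 1077, 672, 435 and 632 UMIs in untrained and 916, 436, 442 and 292 UMIs in trained replicates 1 to 4. The levels were 2820, 1912, 2071 and 1403 CPM in untrained and 2301, 2243, 2708 and 1571 CPM in trained libraries. Replicate 4 was the lowest in both groups, whereas the highest was replicate 1 in untrained and replicate 3 in trained cords. The means were 2052 ± 586 and 2206 ± 471 CPM (SD, n = 4 each), and the log2 fold change was 0.10 ± 0.24 (SE, interval -0.40 to 0.61, edgeR adjusted p = 0.99998) without and 0.11 ± 0.14 (interval -0.18 to 0.41, adjusted p = 0.994) with the block. Trained libraries were higher in 3 of 4 pairs and lower in replicate 1 (-0.29 on the log2 scale). Scaled by library totals alone they were higher in 2 of 4 pairs. The TMM factors averaged -0.0884 on the log2 scale, trained minus untrained. Leaving them out thus lowers the mean trained difference of every gene, not of Map1b alone. Without untrained replicate 1 the log2 fold change was 0.30 and without trained replicate 4 it was 0.23. Without trained replicate 3 or untrained replicate 4 it turned to -0.01 and -0.04, and none of these passed the test.

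Map2, the dendritic microtubule protein, was counted at 361, 285, 204 and 377 UMIs in untrained and at 319, 143, 162 and 155 UMIs in trained replicates 1 to 4. The levels were closer to each other than the counts, at 945, 811, 971 and 837 CPM in untrained and 801, 736, 993 and 834 CPM in trained libraries. The lowest level in both groups was replicate 2 and the highest replicate 3. The means were 891 ± 79.0 and 841 ± 109 CPM (SD, n = 4 each), and the log2 fold change was -0.08 ± 0.19 (SE, interval -0.48 to 0.31, edgeR adjusted p = 0.99998) without and -0.09 ± 0.12 (interval -0.34 to 0.16, adjusted p = 0.994) with the block. The trained library was lower in 3 of 4 pairs, by at most 0.24 on the log2 scale, and in 4 of 4 when scaled by library totals alone.

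Mapt, the gene of the axonal protein tau, was counted at 449, 384, 265 and 530 UMIs in untrained and at 507, 217, 208 and 232 UMIs in trained replicates 1 to 4. Its levels were 1176, 1092, 1262 and 1177 CPM in untrained and 1273, 1117, 1275 and 1248 CPM in trained libraries, so the 8 libraries differed little. The means were 1177 ± 69.1 and 1228 ± 75.4 CPM (SD, n = 4 each), and the log2 fold change was 0.06 ± 0.18 (SE, interval -0.31 to 0.44, edgeR adjusted p = 0.99998) without and 0.06 ± 0.12 (interval -0.19 to 0.31, adjusted p = 0.994) with the block. Trained libraries were higher in 4 of 4 pairs, by 0.01 to 0.11 on the log2 scale, but in only 1 of 4 when scaled by library totals alone, where the log2 fold change was -0.02. All 4 pairs went one way for 490 of the 4086 genes tested, and of the 4 genes this held for Mapt alone.

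**Figure D2:**
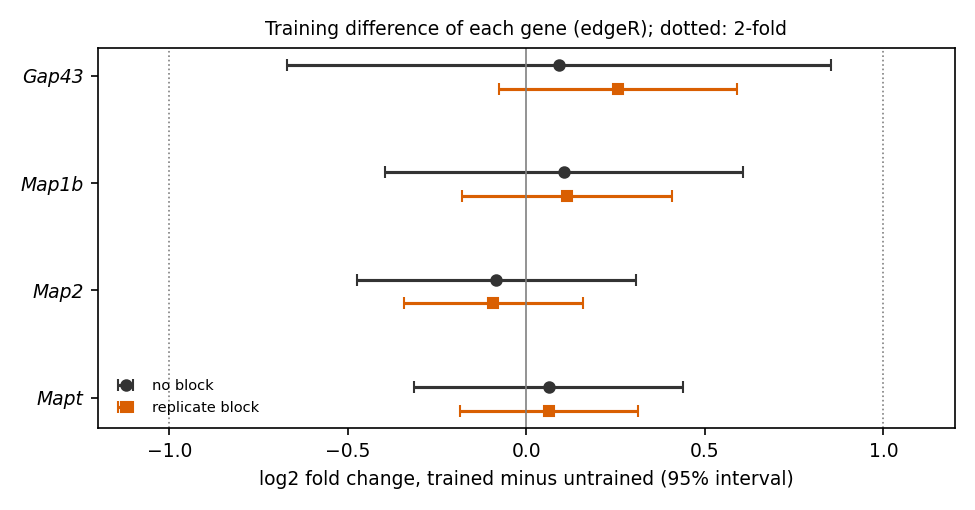
Log2 fold change of each gene, trained minus untrained (horizontal axis), with its 95% interval from edgeR; circles come from the model without the replicate block and squares from the model with it, and dotted lines mark 2-fold. All 8 intervals include 0 and lie inside the 2-fold lines, from -0.67 to 0.85 for Gap43 without the block at the widest.

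The intervals give the range of changes compatible with each fit. Their widths use a spread between libraries that edgeR moderates towards that of other genes. Without the block this fitted spread was 17.7% for Mapt, whose own SD over mean was 5.87% in untrained and 6.14% in trained libraries. For Gap43 it was 35.8%, against 70.4% and 34.3%. Without the block the intervals reached from 0.63-fold to 1.81-fold for Gap43, from 0.76-fold to 1.52-fold for Map1b, from 0.72-fold to 1.24-fold for Map2 and from 0.80-fold to 1.36-fold for Mapt. With the block they narrowed to 0.95-fold to 1.51-fold for Gap43, 0.88-fold to 1.33-fold for Map1b, 0.79-fold to 1.12-fold for Map2 and 0.88-fold to 1.24-fold for Mapt. A 2-fold change thus lay outside the interval of each gene in both fits. No interval was computed from the 4 pairs of Gap43 alone. Their log2 differences ran from -0.34 to 0.93 with an SD of 0.52, against a median SD of 0.38 over all genes tested. The blocked fit therefore does not by itself exclude a doubling of Gap43. Under other settings the interval reached past 2-fold in 6 of 112 fits, 5 of them for Gap43 and 1 for Map1b. With the block 2 genes passed the threshold in the whole table, or 0.0489% of those tested, and none of the 4 was among them.

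The spread between libraries of one group differed widely among the 4 genes. The coefficient of variation (SD over mean) of Gap43 was 70.4% in untrained libraries, the 99.2nd percentile of the genes tested, whose median was 24.7%. The counting error of its UMIs alone would give about 6.20%. In trained libraries its coefficient was 34.3%, against a median of 27.9% over all genes tested. Replicate 3 carried much of this: without it Gap43 had 33.7% in untrained libraries (76.5th percentile) and 10.9% in trained ones (14.2nd percentile).

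Mapt stood at the other end, with coefficients of 5.87% in untrained and 6.14% in trained libraries, the 1.35th and 1.47th percentiles. Counting error alone would give 5.08% and 6.18%, so the spread of its level was close to that error with all 4 libraries of each group. Without trained replicate 2, the lowest of its group, the trained coefficient was 1.19%, below the counting error. Map2 had 8.87% in untrained and 13.0% in trained libraries (4.55th and 10.7th percentiles), the latter 6.31% without trained replicate 3. Map1b had 28.6% and 21.4% (61.6th and 31.5th percentiles), the latter 10.5% (13.8th percentile) without trained replicate 4. These percentiles run over genes of every abundance, and genes with few UMIs carry more counting error.

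**Figure D3:**
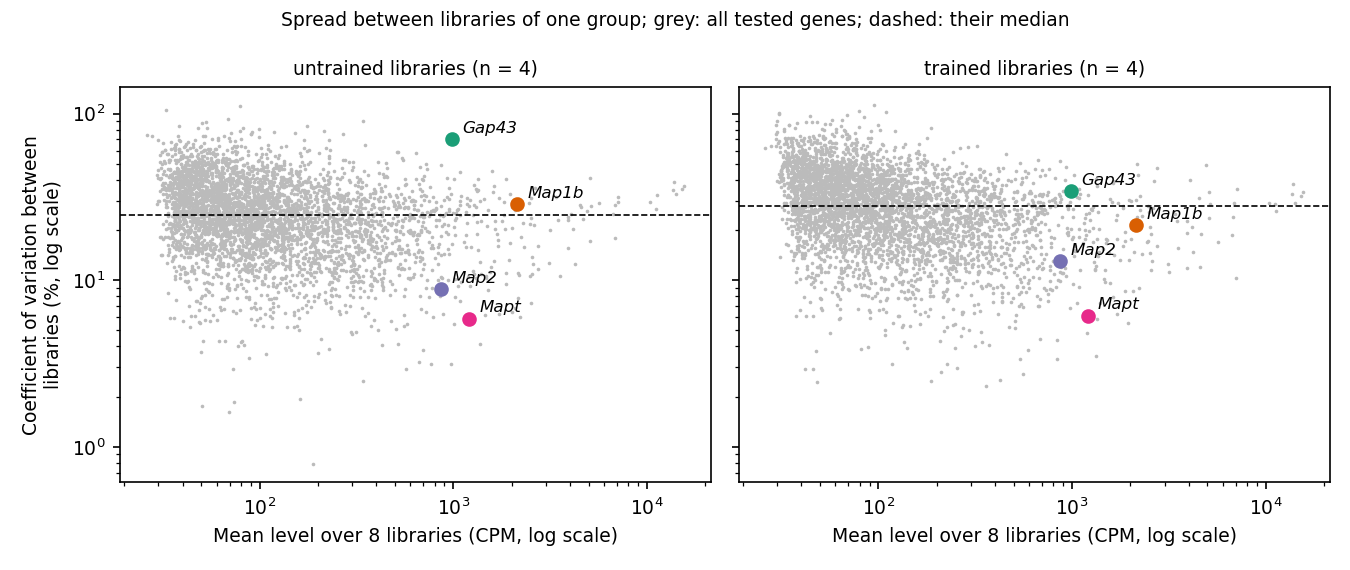
Coefficient of variation between the 4 libraries of a group (vertical axis, percent, log scale) against mean level over 8 libraries (horizontal axis, CPM, log scale), untrained at left and trained at right; grey points are all 4086 genes tested and the dashed line their median. Gap43 lies at 70.4% in untrained libraries and Mapt at 5.87%, at similar mean levels.

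Gap43 and Map1b differed between replicate numbers. Sample titles carry a number from 1 to 4 whose meaning the labels do not state, and a test of the number, with training in the model, asked whether same-numbered libraries share a level. It called 16.0% of the genes tested. Gap43 was among them, with mean levels of 578, 754, 1724 and 875 CPM for numbers 1 to 4, a 3.09-fold span of the mean log2 levels (edgeR adjusted p = 0.000563, rank 26 of 4086 by p). Map1b was called as well, at 2560, 2078, 2390 and 1487 CPM, a 1.71-fold span (edgeR adjusted p = 0.0363). Map2 spanned 1.27-fold and Mapt 1.15-fold, and neither passed (edgeR adjusted p = 0.451 and 0.789).

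The 2 genes did not follow the numbers in the same way. Gap43 lay above its group mean in replicate 3, by 1.25 in untrained and 0.64 in trained libraries on the log2 scale, and below it in replicate 1, at -1.02 and -0.35. Map1b lay above its group mean in replicate 1, by 0.50 and 0.09, and below it in replicate 4, at -0.50 and -0.46, where Gap43 was within 0.05 of its mean in both groups. The Map1b call was lost without both libraries of number 4 (edgeR adjusted p = 0.602). It was also lost without untrained replicate 1, 2 or 4 (adjusted p = 0.0789, 0.0975 and 0.209) and without trained replicate 2 or 4 (0.0904 and 0.141). The Gap43 call was kept without both libraries of number 3 (edgeR adjusted p = 0.0325) and without any 1 library (adjusted p of at most 0.00503).

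**Figure D4:**
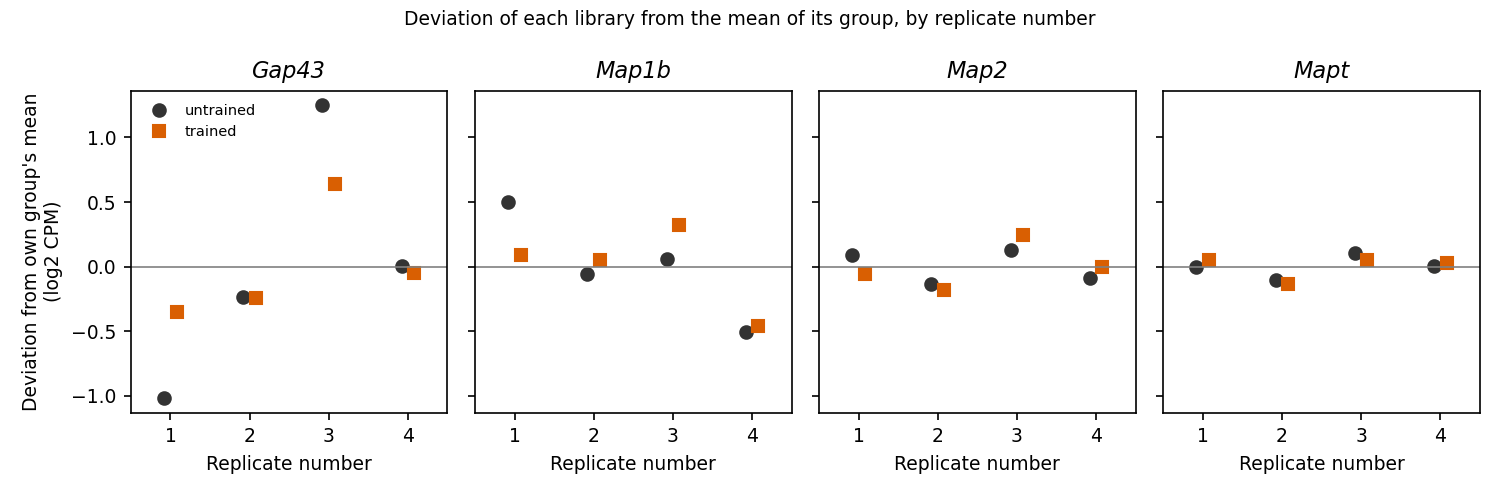
Deviation of each library from the mean of its own group (vertical axis, log2 CPM) by replicate number (horizontal axis); circles are untrained and squares trained libraries. For Gap43 both libraries numbered 3 lie above 0, at 1.25 and 0.64, whereas the Mapt libraries lie between -0.13 and 0.10.

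Library depth moved with the Gap43 level in part. Replicate 3 was the shallowest library of each group, with 240895 UMIs untrained and 192472 trained. Trained replicates 2 and 4 were nearly as shallow, with 216786 and 212328 UMIs, and had 823 and 941 CPM of Gap43. Untrained replicate 4 was the deepest, with 453390 UMIs, and had 808 CPM. The shallower untrained replicates 1 and 2 had less, 395 and 686 CPM at 384167 and 365523 UMIs. With the log2 library total as a further term, the difference of Gap43 between numbers had an edgeR adjusted p of 0.0468. That model has nearly as many terms as there are libraries, so little is left to measure their spread. The training difference with the total as a covariate and no block was -0.37 ± 0.32 (SE, adjusted p = 0.99985).

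Ratios of the 4 genes within a library do not depend on any scaling. Map2 stayed at 0.804, 0.742, 0.770 and 0.711 UMIs per UMI of Mapt in untrained replicates 1 to 4 and at 0.629, 0.659, 0.779 and 0.668 in trained ones. The untrained mean was 0.757 ± 0.040 and the trained mean 0.684 ± 0.065 (SD, n = 4 each), with trained replicate 3 inside the untrained range and the other trained libraries below it. Each ratio carries the counting error of both genes, on average 7.46% for Map2 and 6.18% for Mapt in trained libraries. The difference in this ratio was not tested. Gap43 per UMI of Mapt ran from 0.336 to 1.53 in untrained libraries, a wider range than the 0.598 to 1.19 of trained ones, with means of 0.795 ± 0.512 and 0.820 ± 0.258. Over all 8 libraries the Map2 ratio spanned 1.28-fold and the Gap43 ratio 4.54-fold.

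**Figure D5:**
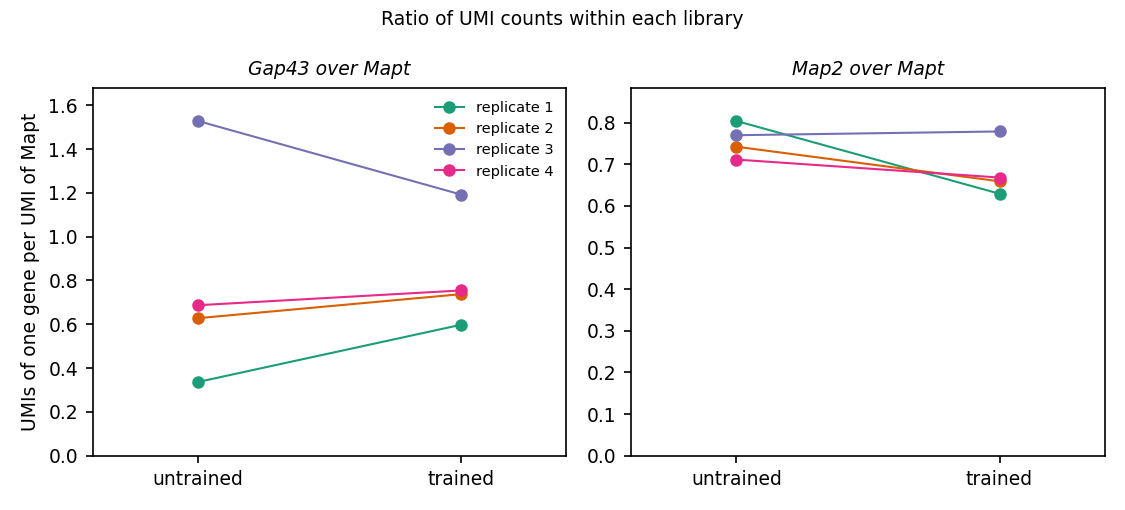
UMIs of Gap43 (left) and Map2 (right) per UMI of Mapt in each library (vertical axes, from 0), with lines joining equal replicate numbers in untrained and trained libraries. Replicate 3 is the highest for Gap43 in both groups, at 1.53 and 1.19, and the Map2 ratio stays between 0.629 and 0.804.

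By UMIs, Map1b was above Mapt in all 8 libraries, by 1.19-fold to 2.40-fold, and Mapt was above Map2 in all 8. Gap43 had no fixed place in this order: it ran from 0.418 to 1.99 UMIs per UMI of Map2, and in both libraries numbered 3 it exceeded Mapt. This order compares captured 3′ ends, and how well each gene's 3′ end is captured and annotated was not measured. Over all genes tested the 4 stood at ranks 55 (Map1b), 113 (Mapt), 144 (Gap43) and 169 (Map2) by mean CPM.

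Over the 8 libraries the levels of the 4 genes were compared in pairs. Described by Pearson's r of log2 CPM, with no test, Mapt and Map2 had 0.55, Gap43 and Mapt 0.54, Gap43 and Map2 0.37, Map1b and Map2 0.39, Map1b and Mapt 0.14, and Gap43 and Map1b -0.10. Same-numbered libraries deviated together across the whole table, so these 8 points are not independent. The values also rested on few libraries. Without the 2 libraries farthest from the median of Gap43, its r with Map2 was 0.84, and without the 2 farthest from the median of Map2 it was -0.75. For Gap43 and Map1b the corresponding values were 0.47 and -0.25 (2 libraries left out by Gap43 or by Map1b), and for Mapt and Map2 they were 0.08 and 0.22 (by Mapt or by Map2). No shared or separate pattern of the 4 genes can be read from these values. The gene most like Gap43 was ENSRNOG00000006663 (r = 0.95), on counts of only 7 to 29 UMIs, and the one most like Map1b was ENSRNOG00000014806 (r = 0.96, 45 to 212 UMIs). The one most like Map2 was ENSRNOG00000003600 (r = 0.93, 5 to 24 UMIs) and the one most like Mapt was ENSRNOG00000055583 (r = 0.98, 54 to 140 UMIs). With 4085 genes to choose from, high values of r over 8 libraries are the top of a long list.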

How the data were processed

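The authors deposited raw UMI counts of 32883 Ensembl genes in 8 CEL-Seq2 libraries, sequenced on an Illumina HiSeq1500 per the labels' protocols. The submitters' processing notes name HISAT2 2.0.4, HTSeq 0.6.0 and the build Rnor_6.0; for the UMI length and the collapsing step, not given in the sources used here, nothing was assumed in the main fit. Columns were matched to samples by title. In R 4.3.3, filterByExpr of edgeR 4.0.16 (minimum count of 10) kept 4086 genes, TMM scaled them, and the quasi-likelihood F test compared trained with untrained libraries over all 8, with Benjamini-Hochberg adjustment over all genes tested and a threshold of 0.05. Standard errors from edgeR are the absolute log2 fold change over the square root of F, and those from DESeq2 and limma-voom come from their own fits. A prior count of 2 was added for log2 CPM, and a count of 0 allows 6.66 to 18.4 CPM. DESeq2 1.42.0 and limma 3.58.1 were alternatives, run on the same genes. The fits were also run on simulated counts with planted changes. Those counts gave all genes 1 common spread between libraries, 12.5%, taken from the model with the block. The model without the block had 23.1%. Counts simulated for the training comparison held no difference between replicate numbers. Recovery in these simulations is therefore no measure of what the main fit could detect.

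Pairing by number was asked for by the rule that set the genes, while the labels do not say what the number means. Same-numbered libraries deviated together from their group means (correlations of 0.296 to 0.531 over the 4086 genes, criterion 0.1). That the numbers mark real pairs therefore rests on the data alone. No pair of libraries within a group looked like one library deposited again (chi-square of 2.83 to 5.61 times its degrees of freedom in 12 pairs).

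The rule for the 4 genes uses no measured value, but the genes, lists, tests and alternatives were all chosen with earlier results of these data known. Alternatives described as chosen after seeing the data were added later still. Named genes were the 4 members and, for each, the gene of highest Pearson r. Lists of growth cone genes, microtubule genes, tubulins, tau kinases and cell type markers were set by symbol and could not be matched, since 0 identifiers matched the RefSeq table.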

Additional observations from a re-analysis of the deposited data

Results flagged for a closer look

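Of 8 sets of 4 libraries (each gene in each group), 1 held a value far from the others for the range of its set, where chance gives about 1 in 20 sets. Mapt in trained replicate 2, at 1116.5 CPM, lay below the other 3 trained libraries, with a gap of 0.832 of the range, just above the limit for sets of this size. That range was narrow. The other 3 libraries had a coefficient of variation of 1.19%, below their counting error, and the flagged count alone carries a counting error of 6.79%. Untrained replicate 2, at 1092 CPM, was also the lowest Mapt library of its group.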

How the results depend on the processing

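Each gene's training difference was recomputed under 28 alternatives, and 0 of the 112 values passed the threshold, with adjusted p from 0.581 to 1. The sign turned in 10. Gap43 had a log2 fold change of -0.374 with the library total as a covariate and -0.157 within replicates 3 and 4, against 0.549 within replicates 1 and 2, and -0.179 to 0.672 with 1 library left out. Map1b had -0.058 within replicates 1 and 2 and -0.0427 to 0.297 with 1 library left out, Map2 0.00162 within replicates 3 and 4, and Mapt -0.0208 with library totals only. The replicate block changed no call of the 4 genes. With pairs kept and 1 pair left out, Gap43 ran from 0.0243 to 0.469. The count of genes past the threshold over the whole table went from 0 to 6 with no filter, 2 with the replicate block in edgeR and in limma-voom, 1 with the block in DESeq2, 1 with the block on counts corrected for UMI saturation, and 0 to 2 with 1 library left out. The cause was not tested.

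The difference between replicate numbers kept its side of the threshold for Gap43, Map2 and Mapt in all 20 alternatives, of which the library total as a covariate and the removal of both libraries of a number were chosen after seeing the data. For Map1b the adjusted p ran from 0.0129 to 0.602 with 1 library or 1 number left out, and 6 of these lost the call. The filter was run anew when libraries were left out. Correction for UMI saturation, which assumes a UMI of 6 bases, raised Map1b in untrained replicate 1 from 1077 to 1250 and Gap43 counts by at most 5.19%.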
